A study of Mus musculus with 9 samples.

Results

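The unfolded protein response genes and endoplasmic reticulum (ER) chaperones described here are 33 genes, taken by symbol from a list, of 26146 genes in the deposited table. All 33 had a row. They were read in 9 poly(A) RNA-seq libraries of the mouse macrophage line RAW264.7. The untreated group is called Normal (3 libraries). The other groups received lipopolysaccharide (LPS), the bacterial endotoxin that Toll-like receptor 4 detects, alone or together with a Traditional Chinese Medicine extract whose plant, dose and exposure time the labels do not give. Their labels conflict. The 3 libraries in the table's ET columns are titled LPS but carry the library name M, and the 3 in the M columns are titled LPS+Extract with ET as their library name. Column names are used for the groups here. Read by title, the extract was given in M and not in ET, and read by library name the reverse holds. The comparison of both treated groups with Normal is the same under either reading, while the sign of M against ET carries no treatment name. The labels do not say that the 3 libraries of a group came from separate cultures, so the tests measure the spread between these libraries, which may be technical.

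Proteins that are secreted or sit in membranes fold in the ER. When unfolded chains accumulate there, the kinase and RNase IRE1 (gene Ern1), the kinase PERK (Eif2ak3) and the membrane-bound transcription factor ATF6 (Atf6) signal to the nucleus, and IRE1 makes an active XBP1 by cutting out an intron of Xbp1 mRNA. ATF6 and XBP1 raise chaperones, disulfide isomerases and the machinery that sends misfolded proteins to the proteasome, called ER-associated degradation. In macrophages, Toll-like receptors themselves mature in the ER with the help of the HSP90-type chaperone Hsp90b1, and activated cells send large amounts of cytokine through it.

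ATF6 is known to act through the ER stress response element (ERSE), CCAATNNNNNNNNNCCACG, in which CCAAT holds the general factor NF-Y and CCACG holds ATF6. The 250 bases before the RefSeq transcript start (GRCm38.p6) were searched on both strands for ERSE, for ERSE-II (ATTGGNCCACG) and for the core TGACGTGG of the unfolded protein response element. Promoter sequence matched 27 of the 33 genes, and Atf6, Manf, Derl1, Hspa13, Hyou1 and Sec61a1 had no entry. ERSE lay in 9 of the 27 (33.3%), against 37 of all 32851 promoters (0.113%). ERSE-II lay in Herpud1 alone of the 27 (3.7%), against 10 of all promoters (0.0304%). The TGACGTGG core lay in 0 of the 27, against 185 of all promoters (0.563%). Shares of the 27 count genes, while shares of all count promoter windows, those of the 27 genes among them. The genes were listed as members of this response, so these shares describe the list and test nothing. None of the matched letters of one element was shared with another in these genes. The 10 ERSE sites are shown because most of the genes that were higher in M than in ET and had promoter sequence hold one. Capitals mark the fixed letters, and a site that begins with CGTGG is read on the reverse strand.
Hspa5: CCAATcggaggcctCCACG
Hsp90b1, far site: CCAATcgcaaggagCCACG
Hsp90b1, near site: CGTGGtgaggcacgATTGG
Calr: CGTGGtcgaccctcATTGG
Canx: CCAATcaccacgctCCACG
Pdia6: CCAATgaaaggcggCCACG
Dnajc3: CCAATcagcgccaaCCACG
Creld2: CGTGGcgagcctcaATTGG
Syvn1: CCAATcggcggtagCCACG
Derl3: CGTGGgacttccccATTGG
The 9 gap bases differed from gene to gene. The site nearest to a start was that of Syvn1, at 26 to 44 bases upstream, and the farthest was the far site of Hsp90b1, at 194 to 212 bases. In Hspa5 the site lay 47 to 65 bases upstream of the RefSeq start. The gene's span in the deposited table takes in the last 120 bases of that window, the site among them. A match is a description of letters and not of binding.

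Whole windows are printed for 5 genes, with matched letters in capitals. Canx (chr11:50325674-50325923, minus strand), Creld2 (chr15:88819396-88819645, plus strand) and Dnajc3 (chr14:118937682-118937931, plus strand) hold an ERSE and were higher in M than in ET. Herpud1 (chr8:94386179-94386428, plus strand) is the gene with ERSE-II and passed no test. Xbp1 (chr11:5520391-5520640, plus strand) fell in both treated groups, and its window held none of the searched letters. Each of these windows lies outside the gene's span in the deposited table.
Canx: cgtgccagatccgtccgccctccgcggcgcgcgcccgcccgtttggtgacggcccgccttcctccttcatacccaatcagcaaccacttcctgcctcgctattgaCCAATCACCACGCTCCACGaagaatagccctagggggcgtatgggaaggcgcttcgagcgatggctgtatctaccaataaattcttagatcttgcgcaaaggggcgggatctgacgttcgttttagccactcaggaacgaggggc
Creld2: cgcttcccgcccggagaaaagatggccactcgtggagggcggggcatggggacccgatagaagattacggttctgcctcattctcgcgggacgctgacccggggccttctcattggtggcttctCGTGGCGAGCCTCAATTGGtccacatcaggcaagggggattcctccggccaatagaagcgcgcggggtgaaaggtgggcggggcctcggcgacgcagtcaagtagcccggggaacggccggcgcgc
Dnajc3: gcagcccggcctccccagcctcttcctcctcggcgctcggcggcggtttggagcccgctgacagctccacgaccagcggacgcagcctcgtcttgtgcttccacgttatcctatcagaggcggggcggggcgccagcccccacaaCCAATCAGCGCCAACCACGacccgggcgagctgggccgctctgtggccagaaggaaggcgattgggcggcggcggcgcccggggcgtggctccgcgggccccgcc
Herpud1: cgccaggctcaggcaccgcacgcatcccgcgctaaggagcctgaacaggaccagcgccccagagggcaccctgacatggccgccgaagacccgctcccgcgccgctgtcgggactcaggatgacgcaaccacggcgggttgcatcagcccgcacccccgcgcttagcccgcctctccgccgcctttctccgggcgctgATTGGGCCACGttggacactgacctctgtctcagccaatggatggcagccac
Xbp1: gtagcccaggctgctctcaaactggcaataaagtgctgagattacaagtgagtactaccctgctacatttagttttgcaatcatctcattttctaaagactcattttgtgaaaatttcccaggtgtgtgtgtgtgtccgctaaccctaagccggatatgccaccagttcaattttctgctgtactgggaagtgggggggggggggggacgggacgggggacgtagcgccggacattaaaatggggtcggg

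**Figure D1:**
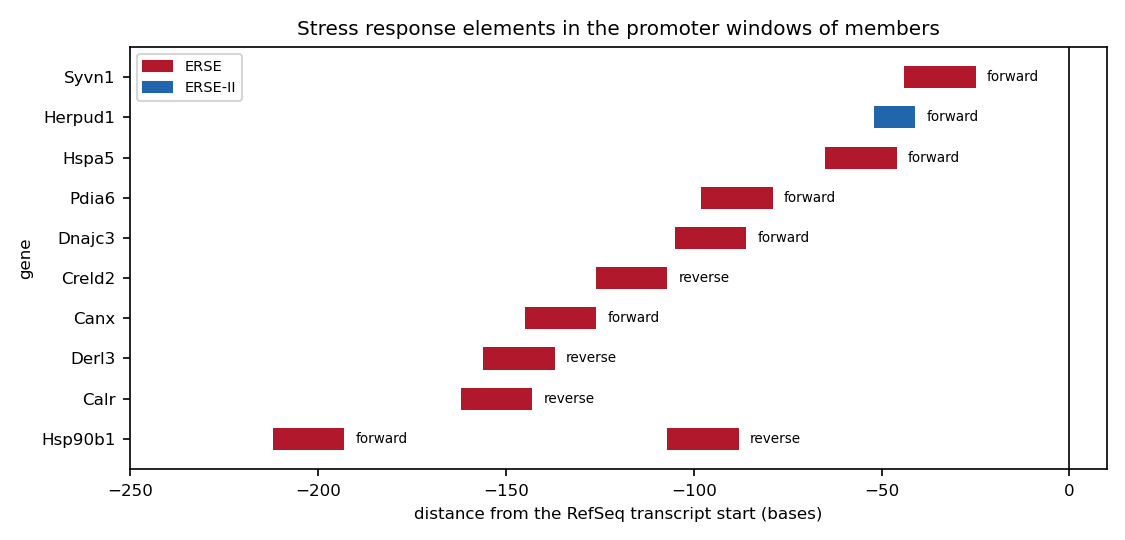
Position of each ERSE (red) and ERSE-II (blue) in the 250 bases before the RefSeq transcript start, by gene, with 0 at the start and the strand of the match written beside it. The site of Syvn1 lies nearest to the start and the far site of Hsp90b1 lies farthest from it.

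Libraries held 55039858 to 76242718 counts, and values below are TMM-scaled counts per 1e6 counts (CPM) unless FPKM is named. The tests cover the 11536 genes that reached an FPKM of 1 in 3 or more of the 9 libraries, with edgeR's quasi-likelihood test and Benjamini-Hochberg adjustment, and a gene is called at an adjusted p under 0.05. Of the 33 genes, 32 were tested. The 8 macrophage markers, all in the table, summed to 4718 to 4914 CPM in the Normal libraries, 5640 to 5925 in those of ET and 5535 to 5710 in those of M. Members of that list moved apart in the treated mean. Cd14 (5.18-fold), Adgre1 (3.93-fold), Itgam (3.34-fold) and Cd68 (1.37-fold) were higher, Csf1r fell by 39.3%, Lyz2 fell by 35.4%, Spi1 fell by 23.5%, and Ptprc was not called (adjusted p = 0.799). ET replicate 3 stood apart from ET replicates 1 and 2, with a chi-square per gene of 26.2 and 21.4 where those 2 gave 14.5. Without it the calls below numbered 29 in the treated mean, 24 in ET, 28 in M and 11 between M and ET. Of all 11536 tested genes, 1121 were then higher and 707 lower in M than in ET, beside 573 and 475 with all libraries. In the treated mean 4272 were then higher and 4229 lower, in ET 3988 and 3945, and in M 4211 and 4010. T cell markers (3 of 6 in the table) stayed at or below 0.204 CPM, and the B and plasma cell markers (7 of 8) summed to 468 to 496, 70.3 to 71.0 and 75.6 to 76.4 CPM in Normal, ET and M, most of it from Ighm, with Jchain at or near 0. Fibroblast markers (6 of 6) summed to 0.363 to 0.848, 9.23 to 10.8 and 12.9 to 18.5 CPM in Normal, ET and M. Most of the treated sum came from Lum (means 0, 8.13 and 13.1 CPM), with Dcn next. Col1a1, Col1a2, Col3a1 and Pdgfra stayed at or below 0.475 CPM in every library. Epithelial and endothelial markers (4 of 7) summed to 4.92 to 6.19, 18.1 to 21.6 and 21.6 to 23.7 CPM, most of it from Pecam1. Erythroid markers (5 of 6) summed to 0.102 to 0.142, 0.978 to 1.42 and 0.997 to 1.31 CPM. Hba-a1 made most of the treated erythroid sums, while Alas2 was 0 in every treated library. The mitochondrial share was lower in the treated libraries, at 3.29 to 3.62% (ET) and 3.46 to 3.78% (M) beside 4.39 to 4.61% (Normal). The part of these markers and of the mitochondrial share in the results was not tested. In bulk RNA, fewer cells of a type and less RNA per cell cannot be told apart.

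Most of the set was higher in the treated cells, by modest amounts, and its own transcription factor Xbp1 was lower. In the mean of ET and M against Normal, 25 of 32 tested genes were higher (78.1%) where 36.8% of all tested genes were higher, and 4 were lower (12.5%) where 36.8% were. The 4 lower genes were Xbp1, Eif2ak3, Pdia6 and Sdf2l1, and Hsp90b1, Herpud1 and Sec61b were not called. The median log2 change of the 32 was 0.27, beside -0.013 over all tested genes. At 1.5-fold or more, 5 were higher (Dnajb9, Ern1, Edem1, Hspa13 and P4hb), with 17.2% of all genes past that mark, and 1 was lower (Xbp1), with 13.0% of all. The genes took 1.28% ± 0.00356 of all counts in Normal, 1.32% ± 0.00619 in ET and 1.48% ± 0.0148 in M (SD, n = 3), and the 3 groups did not overlap. Scaling by total counts alone kept 24 of the 29 calls, losing Canx, Hyou1, Pdia3, Pdia4 and Ppib, and added Sec61b as lower, and both limma fits did the same. It moved the split of all genes from 4241 higher and 4242 lower to 3609 and 5042, and their median log2 to -0.099.

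**Figure D2:**
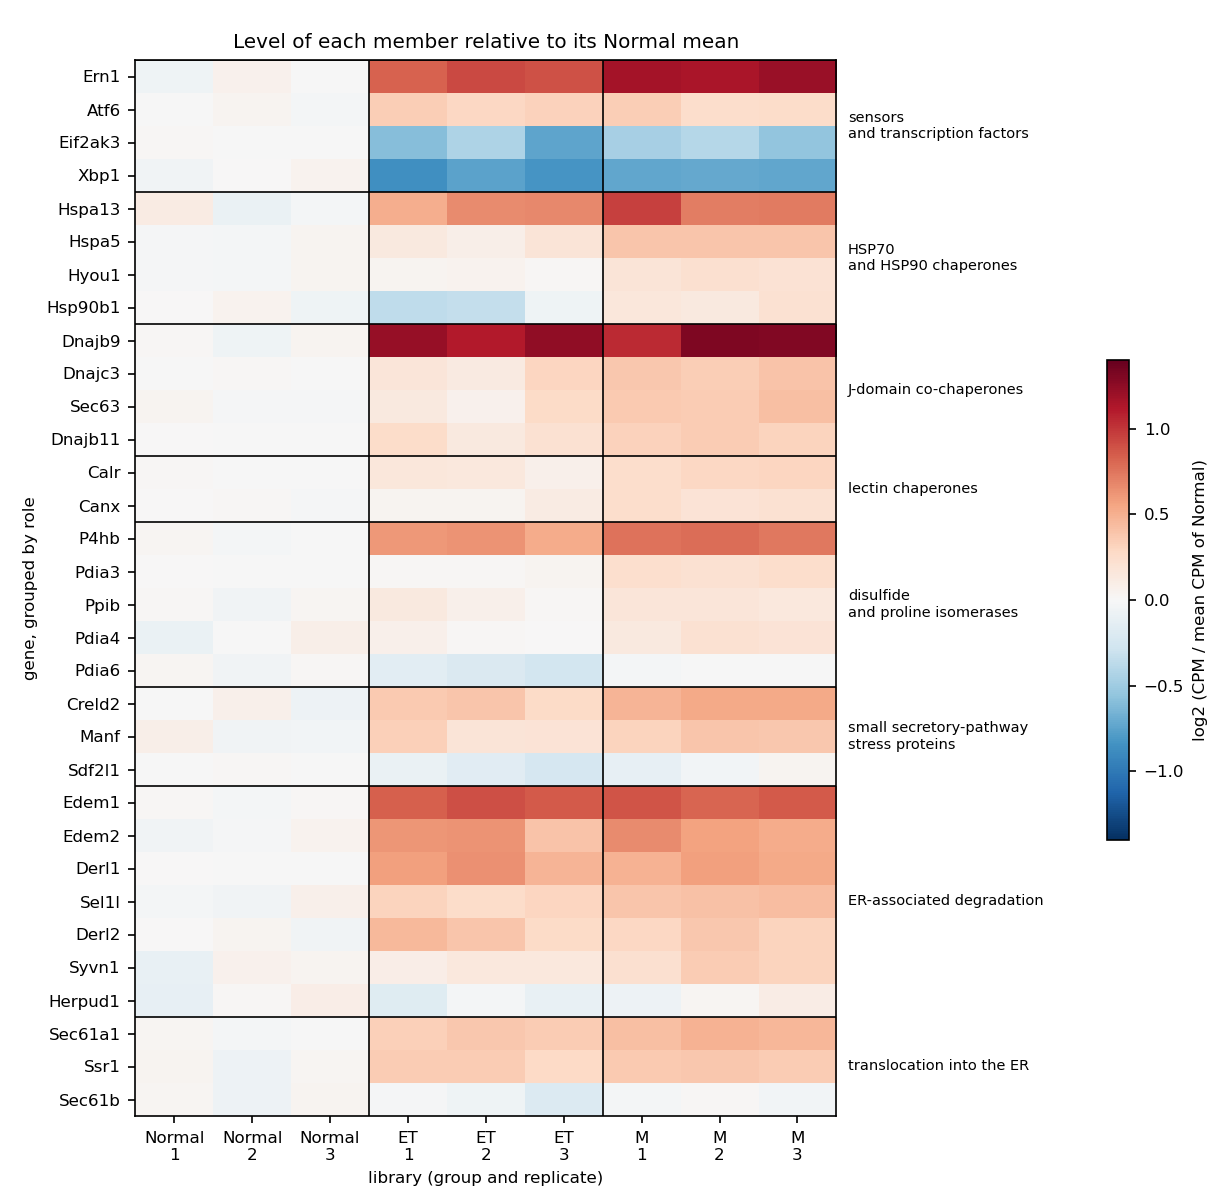
Log2 of each library's CPM over the gene's mean CPM in Normal, for the 32 tested genes in rows grouped by role and the 9 libraries in columns. Dnajb9, Ern1 and Edem1 are red in all 6 treated libraries, Xbp1 and Eif2ak3 are blue in all 6, and Hsp90b1 is blue in ET and pale red in M.

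Each treated group was also set against the same 3 Normal libraries. In ET, 20 of 32 genes were higher (62.5%, against 35.0% of all genes) and 5 were lower (15.6%, against 35.2%), with a median log2 change of 0.18. In M, 26 were higher (81.2%, against 35.5%) and 2 were lower (6.25%, against 34.5%), with a median of 0.33. The 5 genes lower in ET were Xbp1, Eif2ak3, Hsp90b1, Pdia6 and Sdf2l1, and those lower in M were Xbp1 and Eif2ak3. Canx, Hyou1, Pdia3, Pdia4 and Ppib were higher in the treated mean and in M. In ET they were not called (adjusted p = 0.0741, 0.324, 0.415, 0.541 and 0.0835). With total counts alone, 16 were higher and 7 lower in ET, and 23 were higher and 4 lower in M, where Pdia6 and Sdf2l1 were added (adjusted p = 0.0130 and 0.0275). With that scaling, 3473 of all 11536 tested genes were higher and 4770 lower in ET, and 3460 were higher and 4757 lower in M. Both comparisons share their Normal libraries, and a call in one of them alone does not show a difference between ET and M.

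Set directly against ET, M was higher for 12 of the 32 genes (37.5%), where 4.97% of all genes were higher, and lower for 0, where 4.12% were. The 12 were Hspa5, Hsp90b1, Hyou1, Calr, Canx, Pdia3, Pdia6, P4hb, Dnajc3, Sec63, Creld2 and Ern1. All were small differences, from 10.8% for Canx to 33.4% for Hsp90b1, and none reached 1.5-fold. The median log2 change was 0.13 over the 32 genes and 0.0029 over all genes, and 28 of the 32 values were positive, beside 50.8% of all genes. At an unadjusted p under 0.05, 22 were higher and 0 were lower, beside 14.2% and 11.3% of all genes. DESeq2 called 15 higher and 0 lower, beside 7.91% and 6.96% of all genes. In 20 of the 32 genes, the M libraries all lay above the ET libraries, as they did in 14.3% of all tested genes. The count of 12 dropped to 7 without ET replicate 1 and to 6 without M replicate 3, and limma on log2(FPKM + 1) gave 6 and on log2(FPKM + 0.1) gave 4, all higher, where 3.32% and 2.53% of all genes were higher and 3.72% and 3.04% lower. Calr, Canx, P4hb, Dnajc3, Sec63 and Creld2 lost their call with both limma fits, and Hyou1 and Pdia6 with the second. Hspa5, Hsp90b1 and Pdia3 kept their call under each other test, scaling, filter and left-out library.

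**Figure D3:**
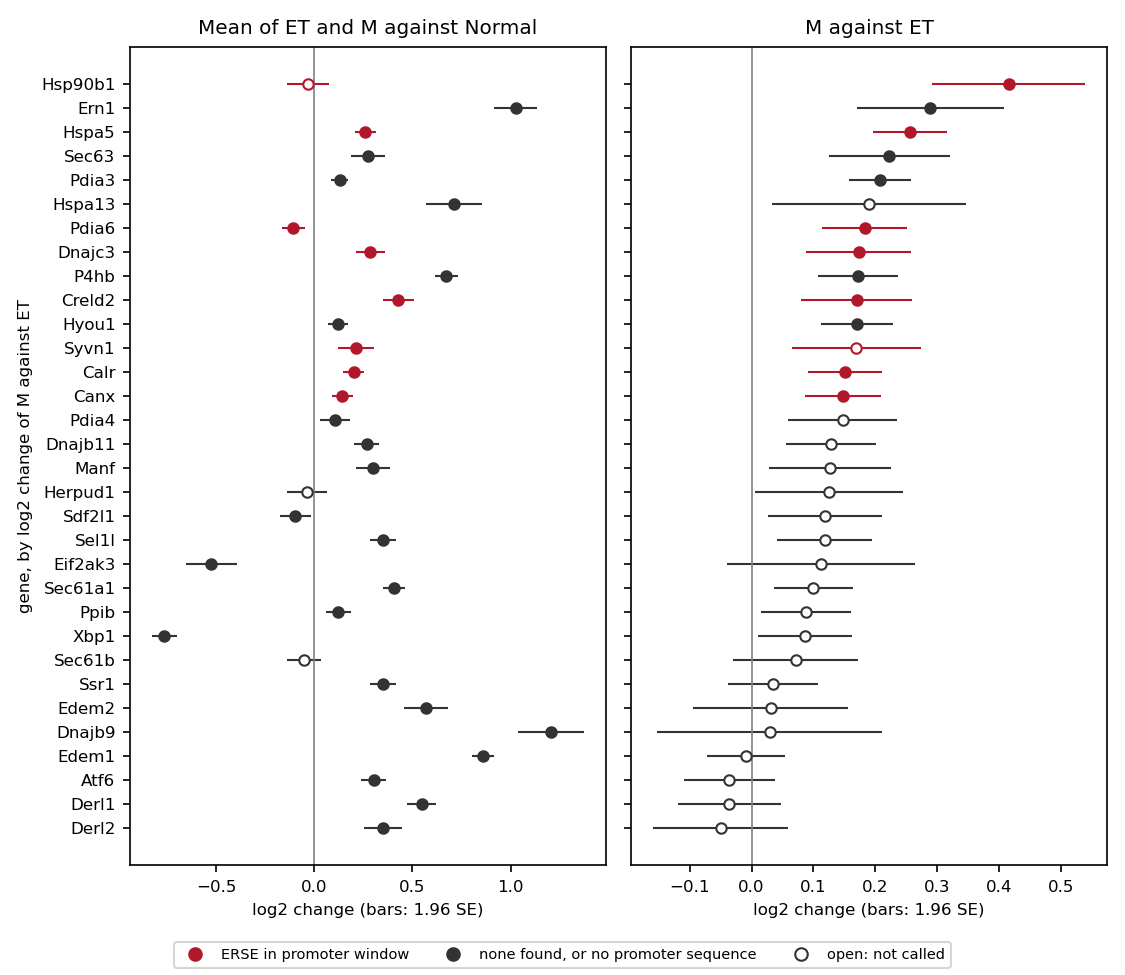
Log2 change with bars of 1.96 SE (an approximate 95% interval) for the 32 tested genes, in the mean of ET and M against Normal on the left and in M against ET on the right, ordered by the right panel. Red marks genes with an ERSE, open circles mark genes that were not called, and the right panel spans less than the left, with Hsp90b1 highest at 0.42.

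The stress sensors did not move together. Ern1, the IRE1 kinase and RNase (chromosome 11, 106394650 to 106487852, on GRCm38), stood at 16.3, 17.6 and 16.9 CPM in Normal, 29.9, 32.3 and 31.4 in ET and 38, 37.3 and 39.2 in M. The treated libraries lay far above Normal, and M lay above ET. Ern1 was 2.04-fold higher in the treated mean (log2 1.03, SE 0.056, adjusted p = 3.05e-09) and 22.2% higher in M than in ET (log2 0.29, SE 0.061, adjusted p = 0.0120), the latter call being lost without ET replicate 1 (adjusted p = 0.0685) or M replicate 3 (adjusted p = 0.0588). Atf6, the precursor of the ERSE-binding factor, stood at 171, 177 and 169 CPM in Normal, 218, 211 and 216 in ET and 219, 204 and 206 in M. It rose by 23.2% in the treated mean (log2 0.30, SE 0.033, adjusted p = 3.01e-06), with no overlap with Normal, and ET and M overlapped (log2 -0.036, SE 0.038, adjusted p = 0.600). Eif2ak3, the PERK kinase that slows translation by phosphorylating eIF2-alpha, stood at 38.1, 37.5 and 37.7 CPM in Normal, 25, 28 and 22.7 in ET and 27.5, 28.6 and 25.8 in M. All treated libraries were below Normal, and Eif2ak3 fell by 30.5% (log2 -0.52, SE 0.065, adjusted p = 1.02e-05). ET and M overlapped (log2 0.11, SE 0.078, adjusted p = 0.402).

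Xbp1, the transcription factor activated by IRE1 (chromosome 11, 5520659 to 5525893), stood at 316, 329 and 340.5 CPM in Normal, 182, 195 and 186 in ET and 199, 199.7 and 199 in M. It fell by 41.2% in the treated mean (log2 -0.76, SE 0.033, adjusted p = 2.91e-10), and no treated library came near Normal. The M libraries lay just above the ET libraries without passing the test (log2 0.087, SE 0.039, adjusted p = 0.188). The spliced and unspliced forms of Xbp1 mRNA are counted together in 1 row, which lists all 4 transcripts that GENCODE M21 gives for the gene, so splicing was not measured here.

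**Figure D4:**
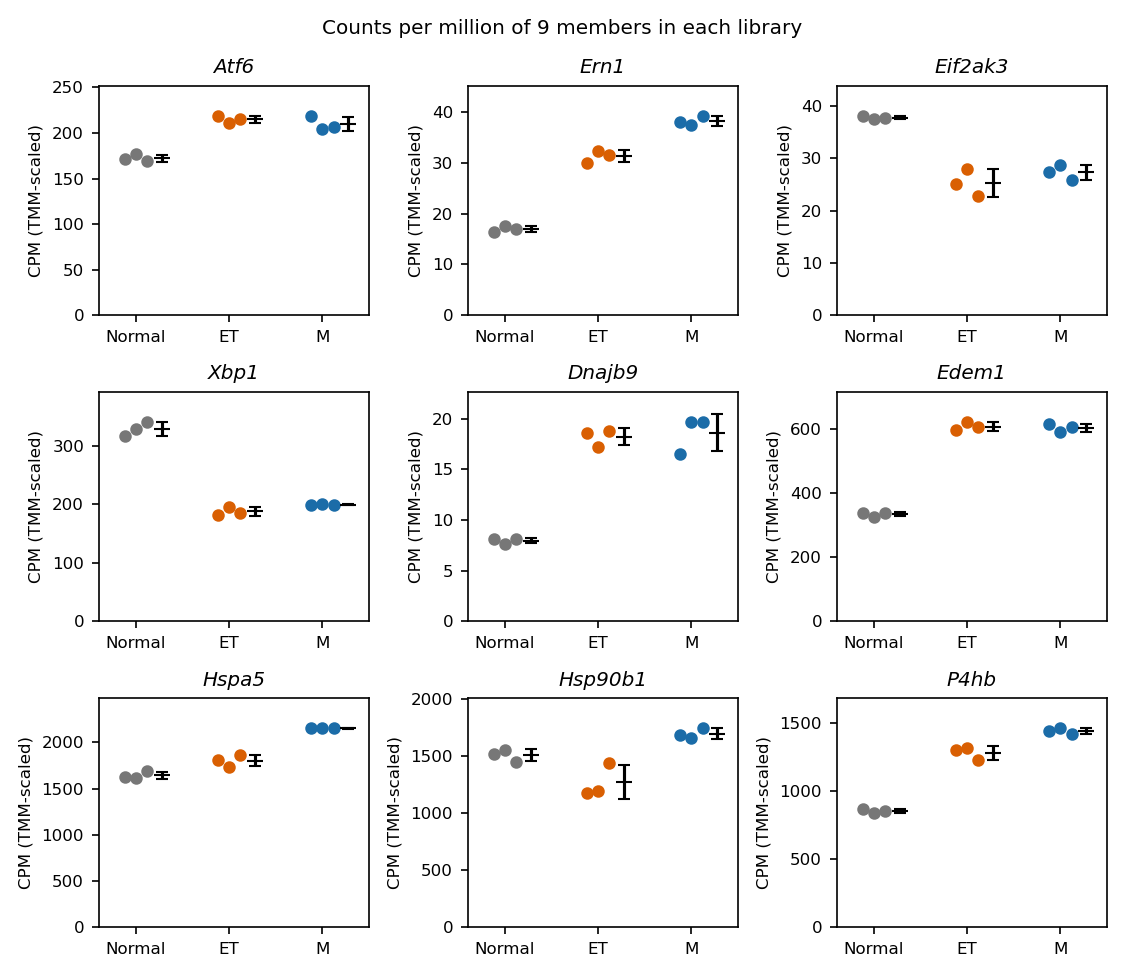
CPM of 9 genes in each library (points), with the group mean and SD of 3 libraries beside them (bars), each panel from 0. Ern1, Dnajb9 and Edem1 are higher and Xbp1 and Eif2ak3 lower in every treated library than in every Normal library, while Hspa5 and Hsp90b1 are highest in M.

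Among the ER chaperones of the HSP70 and HSP90 families, 3 of 4 were higher in the treated mean, beside 36.8% of all genes. In M against ET, 3 of 4 were higher, beside 4.97% of all genes. Hspa5 (BiP), the main ER HSP70 and a regulator of all 3 sensors (chromosome 2, 34771970 to 34777547), stood at 1630.5, 1616 and 1687 CPM in Normal, 1809, 1736 and 1861 in ET and 2150.4, 2156 and 2150.3 in M. The groups did not overlap and the order was Normal, ET, M. Hspa5 rose by 19.8% in the treated mean (log2 0.26, SE 0.027, adjusted p = 1.69e-06) and was 19.4% higher in M than in ET (log2 0.26, SE 0.031, adjusted p = 0.000285). Hsp90b1, the Toll-like receptor chaperone (chromosome 10, 86690209 to 86705509), stood at 1517, 1557 and 1453 CPM in Normal, 1183, 1196 and 1446 in ET and 1690.2, 1663 and 1750.3 in M. ET replicates 1 and 2 were the lowest of all 9 libraries, ET replicate 3 lay just below Normal, and M lay above both groups. Hsp90b1 was 33.4% higher in M than in ET (log2 0.42, SE 0.063, adjusted p = 0.00172), the largest M to ET difference of the set. Against Normal it fell by 15.5% in ET (log2 -0.24, SE 0.063, adjusted p = 0.00417) and was 12.7% higher in M (log2 0.17, SE 0.063, adjusted p = 0.0272), so that the treated mean gave no call (log2 -0.035, SE 0.055, adjusted p = 0.576). Without ET replicate 3 the treated mean was called lower (log2 -0.077, adjusted p = 0.0257). The M against Normal call was lost with total counts alone (adjusted p = 0.272), with both limma fits (0.323 and 0.344), with no filter on low values (0.0946), without Normal replicate 3 (adjusted p = 0.0777) and without M replicate 1 or 3 (adjusted p = 0.0544 and 0.0756).

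Hyou1, a large HSP70 relative that recharges BiP with ATP, stood at 738, 731 and 765 CPM in Normal, 763, 770.2 and 753 in ET and 846, 870.4 and 856 in M. ET overlapped Normal and M lay above both. Its rise in the treated mean was 8.60% (log2 0.12, SE 0.026, adjusted p = 0.00106), and M was 12.5% above ET (log2 0.17, SE 0.03, adjusted p = 0.00399). Hspa13, a lesser known microsomal HSP70 relative, stood at 34.2, 29.6 and 31.1 CPM in Normal, 44.9, 50.0 and 50.5 in ET and 61.4, 52.1 and 52.5 in M. It was 1.64-fold higher in the treated mean with no overlap (log2 0.71, SE 0.072, adjusted p = 1.42e-06). M lay above ET in every library, but the difference was not called (log2 0.19, SE 0.08, adjusted p = 0.161).

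J-domain proteins hand clients to BiP, and all 4 were higher in the treated mean, where 36.8% of all genes were. Dnajb9 (ERdj4), which also brings BiP to IRE1, stood at 8.10, 7.68 and 8.16 CPM in Normal, 18.6, 17.2 and 18.8 in ET and 16.5, 19.7 and 19.7 in M. It gave the largest fold of the set, 2.31-fold in the treated mean (log2 1.21, SE 0.086, adjusted p = 4.51e-08). Treated and Normal libraries were far apart, while ET and M overlapped (interval of the log2 difference -0.15 to 0.21). Dnajc3, an HSP40 inhibitor of PERK, stood at 139, 140.5 and 138 CPM in Normal, 156, 153 and 171 in ET and 181, 177 and 183 in M. It rose by 21.9% in the treated mean (log2 0.29, SE 0.038, adjusted p = 1.91e-05), and M was 12.8% above ET without overlap (log2 0.17, SE 0.043, adjusted p = 0.0279). Sec63, the J-domain partner of the translocation channel, stood at 122, 118 and 117 CPM in Normal, 131, 124 and 144 in ET and 153, 152 and 159 in M. It rose by 20.7% (log2 0.27, SE 0.044, adjusted p = 0.000106), and M was 16.7% above ET without overlap (log2 0.22, SE 0.05, adjusted p = 0.0174). The M to ET calls of Dnajc3 and Sec63 were each lost without ET replicate 1 (adjusted p = 0.107 and 0.0637), ET replicate 2 (0.116 and 0.071) or M replicate 3 (0.10 and 0.0739), and that of Dnajc3 also without M replicate 1 or 2 (0.0814 and 0.0578), with no filter (0.0593) and in a fit of those groups alone (0.0533). Dnajb11 (ERdj3) had 208 to 209 CPM (Normal), 229 to 249 (ET) and 258 to 266 (M). It rose by 20.2% in the treated mean, and its M to ET difference lay at the threshold without passing it (log2 0.13, SE 0.037, adjusted p = 0.050), while DESeq2 called it (adjusted p = 0.0248).

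Both lectin chaperones, which hold glycoproteins during folding, were higher in the treated mean and higher in M than in ET, beside 36.8% and 4.97% of all genes. Against Normal, Canx was called in M but not in ET (log2 0.067, adjusted p = 0.0741 in ET). Calr, soluble calreticulin, had the highest level of the set per length in Normal (462 ± 1.93 FPKM, SD, n = 3). Its libraries stood at 1388, 1368 and 1374 CPM in Normal, 1532, 1528 and 1442 in ET and 1629, 1677 and 1693 in M, without overlap between any of the groups. Calr rose by 14.9% in the treated mean (log2 0.20, SE 0.027, adjusted p = 1.92e-05) and was 11% higher in M than in ET (log2 0.15, SE 0.031, adjusted p = 0.0101), which was not called without M replicate 3 (adjusted p = 0.0713). Canx, membrane-bound calnexin, stood at 844, 847 and 829 CPM in Normal, 865, 865 and 911 in ET and 998, 957 and 972 in M. The lowest ET libraries lay just above the highest Normal library, and M lay clear of both. Canx rose by 10.3% in the treated mean (log2 0.14, SE 0.027, adjusted p = 0.000464) and was 10.8% higher in M than in ET (log2 0.15, SE 0.031, adjusted p = 0.0126). The M to ET call of Canx was lost without ET replicate 1 or 2 (adjusted p = 0.0632 and 0.0587) and without M replicate 1 or 3 (0.058 and 0.0527).

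Of the 5 enzymes that form disulfides or turn proline bonds, 4 were higher in the treated mean, 1 was lower, and 3 were higher in M than in ET. P4hb, protein disulfide isomerase and a subunit of collagen prolyl hydroxylase, stood at 868, 834 and 851 CPM in Normal, 1299, 1313 and 1222 in ET and 1440.1, 1461 and 1419 in M. The 3 groups were apart, with 1.59-fold in the treated mean (log2 0.67, SE 0.029, adjusted p = 3.52e-10) and 12.7% more in M than in ET (log2 0.17, SE 0.033, adjusted p = 0.00726). Pdia3, the isomerase that works with calnexin and calreticulin, stood at 1148, 1141 and 1140.5 CPM in Normal, 1160.0, 1152 and 1175 in ET and 1343, 1329 and 1356 in M. ET lay just above Normal and M lay well above both, by 15.5% over ET (log2 0.21, SE 0.025, adjusted p = 0.000345). The treated mean of Pdia3 was 9.29% higher (log2 0.13, SE 0.022, adjusted p = 0.000182). Pdia6, an isomerase that binds BiP and damps IRE1, stood at 579.6, 551 and 576 CPM in Normal, 514, 495 and 478 in ET and 557, 566 and 565 in M. Its ET libraries were all below Normal and its M libraries lay within the Normal range. Pdia6 fell by 7.14% in the treated mean (log2 -0.11, SE 0.03, adjusted p = 0.00639), a call lost without Normal replicate 1 (adjusted p = 0.0593), and fell by 12.9% in ET (log2 -0.20, SE 0.035, adjusted p = 0.000239). M was 13.6% above ET (log2 0.18, SE 0.035, adjusted p = 0.00724) and was not called against Normal (log2 -0.015, SE 0.035, adjusted p = 0.716), except as lower with total counts alone (log2 -0.11, adjusted p = 0.0130).

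Pdia4, a large ER isomerase, stood at 240.4, 256 and 272 CPM in Normal, 269, 259 and 257 in ET and 281, 297 and 292 in M. ET overlapped Normal, and the treated mean was 7.62% higher (log2 0.11, SE 0.039, adjusted p = 0.0274). That call was lost without Normal replicate 1 or 2 (adjusted p = 0.132 and 0.0538), without M replicate 2 (0.0584) with total counts alone (0.648), with both limma fits (0.627 and 0.637) and with no filter or the filterByExpr filter (0.121 and 0.0594). M lay above ET but was not called (log2 0.15, SE 0.045, adjusted p = 0.0630), except with DESeq2 (adjusted p = 0.0331), in a fit of those groups alone (0.0459) and without Normal replicate 1 or 3 (0.0481 in each). Ppib, the proline isomerase cyclophilin B, had 302 to 319 CPM (Normal), 317 to 343 (ET) and 346 to 352 (M), with the treated mean 8.72% higher (log2 0.12, SE 0.032, adjusted p = 0.00462).

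Of 3 small stress-induced proteins of the secretory pathway, Creld2 and Manf were higher and Sdf2l1 was lower in the treated mean, beside 36.8% of all genes in either direction. Creld2, an ER-resident protein that ER stress induces, stood at 87.6, 92.1 and 83.5 CPM in Normal, 113, 115 and 106 in ET and 122, 127 and 127 in M. It rose by 34.5% (log2 0.43, SE 0.04, adjusted p = 7.49e-07) with no overlap with Normal. Every M library lay above every ET library, and the fitted difference between the groups was 12.5% (log2 0.17, SE 0.046, adjusted p = 0.0386). That call was lost in each of the 6 fits without an ET or M library (adjusted p = 0.0587 to 0.135), without Normal replicate 1 (0.0602), with each other scaling (0.0514 and 0.0604) and with no filter or filterByExpr (0.102 and 0.0559), beside the limma fits. Manf, a survival factor that is kept in the ER or secreted, stood at 186, 169 and 171 CPM in Normal, 221, 199 and 200.3 in ET and 218, 230.2 and 229 in M. It rose by 23% in the treated mean (log2 0.30, SE 0.044, adjusted p = 4.83e-05), and ET replicate 1 lay among the M libraries. Sdf2l1, a partner of Dnajb11, stood at 127, 129 and 128 CPM in Normal, 120.3, 115 and 109 in ET and 118, 125 and 131 in M. The ET libraries lay below Normal, and the M libraries spread from within the ET range to above Normal. Sdf2l1 fell by 10.4% in ET (log2 -0.16, SE 0.047, adjusted p = 0.00918) and by 6.60% in the treated mean (log2 -0.10, SE 0.04, adjusted p = 0.0429). The treated mean call was lost with DESeq2 or its kind of scaling factors in edgeR (adjusted p = 0.0818 and 0.0817), with the replicate block (0.0648) and in 7 of the 9 fits that left out a library, all but those without ET replicate 1 or M replicate 3 (adjusted p = 0.061 to 0.154), and the ET call without ET replicate 3 (0.0501).

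Of the 7 ER-associated degradation genes tested, 6 were higher in the treated mean, where 36.8% of all genes were, and the same 6 were higher in ET and in M. Herpud1 was called in none of these, and Derl3 was not tested. Between M and ET edgeR called 0 of 7, 2 had an unadjusted p under 0.05 (Sel1l and Syvn1), and DESeq2 called 1 (Syvn1, adjusted p = 0.0485). Of all genes, edgeR called 4.97% higher and 4.12% lower there, and DESeq2 called 7.91% and 6.96%. At an unadjusted p under 0.05, 14.2% were higher and 11.3% lower. Edem1, a lectin that picks misfolded glycoproteins for disposal, stood at 336, 326 and 338 CPM in Normal, 595, 620.5 and 603 in ET and 614, 588 and 606 in M. It was 1.81-fold higher in the treated mean (log2 0.86, SE 0.029, adjusted p = 2.95e-11), with the treated libraries well clear of Normal and ET and M interleaved (interval of the log2 difference -0.072 to 0.054). Its relative Edem2 had 44.6 to 47.7 CPM (Normal), 60.8 to 71.2 (ET) and 65.9 to 72.7 (M), 1.48-fold higher in the treated mean (log2 0.57, SE 0.057, adjusted p = 1.35e-06). Derl1, a component of the retrotranslocation complex, had 158 to 160.2 CPM (Normal), 222 to 248 (ET) and 223 to 236 (M) and was 1.46-fold higher (log2 0.55, SE 0.038, adjusted p = 3.39e-08). Derl2, its paralogue, had 47 to 50.2 CPM (Normal), 58.8 to 66.9 (ET) and 59.5 to 63.2 (M) and rose by 27.3%. The ubiquitin ligase Syvn1 (HRD1) had 62.4 to 70.3 CPM (Normal), 71.8 to 74.7 (ET) and 78.6 to 86.5 (M), and its adaptor Sel1l had 153 to 167 CPM (Normal), 189 to 197 (ET) and 207 to 213 (M). Their rises were 16% and 27.5%, and both had all M libraries above ET without a call (adjusted p = 0.0692 and 0.0813).

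Herpud1, an ER membrane protein that is commonly used as a reporter of ER stress, stood at 102, 112 and 119 CPM in Normal, 98.3, 109 and 104 in ET and 106, 113 and 119 in M. All groups overlapped, and neither the treated mean (log2 -0.038, SE 0.052, adjusted p = 0.524) nor M against ET (log2 0.13, SE 0.061, adjusted p = 0.222) was called. Derl3, which is known from secretory cells such as pancreas and plasma cells, stood at 0.142, 0 and 0.153 CPM in Normal, 0.0974, 0.185 and 0.253 in ET and 0.0850, 0.267 and 0.0867 in M. These values are a few counts per library or 0, where 3 counts equal 0.0378 to 0.0555 CPM, and Derl3 was not tested. Sec61a1, the pore of the translocation channel, had 287 to 298 CPM (Normal), 369 to 379.7 (ET) and 391 to 408 (M) and rose by 32.4% (log2 0.40, SE 0.029, adjusted p = 4.46e-08). Ssr1, a channel-associated subunit, had 342 to 369.6 CPM (Normal), 437 to 461 (ET) and 460.4 to 466 (M) and rose by 27.4% (log2 0.35, SE 0.033, adjusted p = 6.43e-07). Sec61b, a small channel subunit, had 68.4 to 73.3 CPM (Normal), 62.7 to 70.7 (ET) and 69.8 to 72.3 (M) with overlap between all groups and no call (log2 -0.053, SE 0.044, adjusted p = 0.298). Between M and ET, 0 of the 3 channel genes were called by edgeR or DESeq2, and 1 (Sec61a1) had an unadjusted p under 0.05. Of all genes, edgeR called 4.97% higher and 4.12% lower there.

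Levels per length spanned a wide range within the set. In Normal, Calr was followed by Hspa5 at 376 ± 9.28 FPKM, Hsp90b1 at 362 ± 12.4, Pdia3 at 352 ± 0.0910 and P4hb at 287 ± 4.81. Hspa5 and Hsp90b1 were within their spread of each other, as were Hsp90b1 and Pdia3. Xbp1 stood at 97.7 ± 3.91 FPKM, Atf6 at 18 ± 0.418 and Eif2ak3 at 6.05 ± 0.0219. At the bottom lay Dnajb9 at 3.02 ± 0.0949 and Ern1 at 2.00 ± 0.0850, with Derl3 near 0. The genes with the largest folds, Dnajb9 and Ern1, were thus the least abundant of the tested set.

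Split by promoter element, 7 of the 8 tested genes with an ERSE were higher in M than in ET, where 4.97% of all tested genes were. Their median log2 difference was 0.17, with a range of 0.15 to 0.42. Of 18 tested genes with promoter sequence and no ERSE, 4 were higher (Ern1, Sec63, Pdia3 and P4hb), with a median of 0.12 and a range of -0.050 to 0.29. Herpud1, which holds an ERSE-II, is among these 18. Among the 6 without promoter sequence, 1 was higher (Hyou1). In the treated mean against Normal, 6 of the 8 ERSE genes were higher and 1 lower. Of the 18 others, 13 were higher and 3 lower, beside 36.8% of all tested genes in either direction. The medians there were 0.21 for the ERSE genes and 0.27 for the others, the reverse of their order between M and ET. The 3 largest rises, those of Dnajb9, Ern1 and Edem1, were in genes without an ERSE in the window. For Dnajb9, all 250 bases of the window lie inside the gene's span in the deposited table, so bases before that span were not searched. The windows of Pdia3 and Ern1 lie inside their genes by 127 and 56 bases. Those of the ERSE genes Hspa5, Hsp90b1, Pdia6 and Calr do so by 120, 65, 44 and 3 bases. The ERSE genes Calr, Hspa5 and Hsp90b1 ranked 1 to 3 in level per length in Normal, and the part of level in the calls was not tested. This split was made after the values were seen, and it has no test.

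The table holds a further 86 genes of the same pathway. Of 83 tested, 56 rose in the treated mean and 15 fell (median log2 0.21), beside 36.8% of all genes in either direction. M exceeded ET for 10 and was below it for 1 (median 0.038), beside 4.97% and 4.12% of all genes. Of the 7 genes of the PERK and ATF4 arm, 5 were higher and 1 was lower in the treated mean (median log2 1.16). Ddit3 (CHOP), a transcription factor tied to cell death in ER stress, stood at 5.68, 5.79 and 6.36 CPM in Normal, 14.6, 12.8 and 14.3 in ET and 11.4, 12.5 and 13.9 in M (treated mean log2 1.16, SE 0.10, adjusted p = 3.29e-07). Ppp1r15a (GADD34), which reverses eIF2-alpha phosphorylation, stood at 14.4, 15.5 and 14.6 CPM in Normal, 42.8, 37.6 and 35.4 in ET and 44.2, 40.3 and 41.8 in M (treated mean log2 1.44, SE 0.071, adjusted p = 1.23e-09). Trib3, a pseudokinase induced by ATF4 and CHOP, stood at 2.60, 2.56 and 2.66 CPM in Normal, 17, 15.2 and 15.4 in ET and 12, 13.7 and 13.7 in M (treated mean log2 2.47, SE 0.10, adjusted p = 1.97e-10). Each of the 3 had every treated library above every Normal library, and none was called between M and ET (adjusted p = 0.442, 0.332 and 0.106). ET and M overlapped for Ddit3 and Ppp1r15a, while every M library of Trib3 lay below every ET library (log2 -0.28). Atf4, the transcription factor of that arm, stood at 277, 277 and 292 CPM in Normal, 327, 323 and 315 in ET and 291, 288 and 287 in M. It was higher in the treated mean (log2 0.11, SE 0.029, adjusted p = 0.00373) and in ET against Normal (log2 0.19, SE 0.034, adjusted p = 0.000246). M overlapped Normal and was not called against it (log2 0.036, SE 0.034, adjusted p = 0.363). Unlike the 12 genes above, Atf4 was lower in M than in ET (log2 -0.16, SE 0.034, adjusted p = 0.0149). Chac1, a glutathione-degrading ATF4 target, rose with a log2 change of 1.74 (adjusted p = 8.15e-07).

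Among the other folding enzymes, the largest rises were of the disulfide-forming oxidases Ero1l, at log2 1.64 (adjusted p = 1.23e-12), and Qsox1, at 1.55 (adjusted p = 5.01e-12). The largest falls were of Erp29, a redox-inactive isomerase relative, at -0.87 (adjusted p = 7.58e-11), of Cnpy3, a Toll-like receptor co-chaperone of Hsp90b1, at -0.77 (adjusted p = 5.03e-09), of the lectin Mlec at -0.70 (adjusted p = 1.06e-09) and of the glucosidase Mogs at -0.50 (adjusted p = 1.11e-07). Between M and ET, Creb3l2 and Ngly1 had the largest log2 rises, 0.38 and 0.29 (adjusted p = 0.0451 and 0.0401), at mean levels under 5 FPKM in both groups, and were picked out after their values were seen. Among genes with a mean of 5 FPKM or more in the higher group, the largest rises were of Dnajc10, a J-domain disulfide reductase, at 0.18 (adjusted p = 0.0423), of the channel-associated Ssr3 at 0.17 (adjusted p = 0.0197) and of the signal peptidase subunit Spcs2 at 0.17 (adjusted p = 0.0333).

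Some counts may hold reads of a neighbour. In GENCODE M21, 12 of the 33 genes share exon sequence with another annotated gene, and for most of these the other gene had few counts. The exceptions were Mis12, with 141% of the counts of Derl2 in Normal, 90.9% in ET and 102% in M, Mrpl49, with 71.8%, 70.0% and 57.4% of those of Syvn1, and Rbm15b and Dcaf1, with 34.3%, 22.7% and 19.5% and 32.7%, 28.7% and 27.3% of those of Manf. Mis12, Mrpl49 and Dcaf1 lie on the strand opposite to Derl2, Syvn1 and Manf, and the strand setting of the counting is not stated. Rbm15b lies on the same strand as Manf, where no strand setting separates the reads. Derl2, Syvn1 and Manf are therefore uncertain, as is Calr to the extent that reads fall on its pseudogene copy.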

How the data were processed

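Gene expression of RAW264.7 macrophages was measured by poly(A) RNA sequencing, with 3 libraries in each of 3 groups. Per the submitters' processing notes, reads were handled with cutadapt 1.9, HISAT2 2.2.1 and StringTie 2.1.6, and DESeq2 and edgeR were named with no version. The deposited table holds the authors' whole-number counts of each gene and, per the file headers, their FPKM values (fragments scaled to transcript length and library total). The genome build, the counting tool and its strand setting are not given in the sources used here. Start and end equalled GENCODE M21 on GRCm38 for 23547 of 26146 genes (90.1%) and for 29 of the 33 members.

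Each sample's label names its table column. Tested were genes reaching an FPKM of 1 in 3 or more of the 9 libraries, with edgeR 4.0.16 in R 4.3.3 (TMM factors, 1 quasi-likelihood fit of 3 groups, Benjamini-Hochberg adjustment over all tested genes at 0.05). CPM are TMM-scaled counts per 1e6 counts. An SE is the size of the log2 change over the square root of the F statistic, and an interval is 1.96 SE to either side, approximately 95%. Total counts were 55039858 to 76242718 per library, and 3 counts equal 0.0378 to 0.0555 CPM. That floor covers counting error only. Replicates differed by more than sampling noise (chi-square per gene 11.2 to 26.2), and the fit was tested on simulated data.

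Other settings were DESeq2 1.42.0, limma 3.58.1 on log2 FPKM with pseudocounts of 1 and 0.1, other scalings and filters, a replicate block, fits of the groups compared, stricter thresholds and leaving out each library. The members, roles and lists were chosen with earlier results of these data known. Values in every library are given for 16 members named in a list, for members called at 1.5-fold or more against Normal and for those called between M and ET. Of other pathway genes the rule took Ddit3, Atf4 and Ppp1r15a, the 4 largest rises and falls against Normal and the 3 largest between M and ET, among called genes whose groups did not overlap and whose higher group had a mean FPKM of 5 or more. Sequence is from RefSeq promoters (GRCm38.p6), matched by symbol, gene ID or synonym. Protein sequences were not used here.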

Additional observations from a re-analysis of the deposited data

How the results depend on the processing

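Asking for at least 1.5-fold left 6 members in the treated mean, 6 in ET against Normal, 6 in M against Normal and 0 in M against ET. In M against ET, an adjusted p of 0.01 left 6 of the 12, and limma on log2(FPKM + 1) and log2(FPKM + 0.1) gave 6 and 4. Leaving out each library gave 26 to 29 calls in the treated mean, 24 to 26 in ET against Normal, 27 to 28 in M against Normal and 6 to 13 in M against ET. Directions that turned were all of values not called. Over the fits without 1 library, log2 lay at -0.086 (without Normal replicate 1) to 0.018 (without Normal replicate 3) for Herpud1 in the treated mean and at -0.033 to 0.0050 (without Normal replicates 2 and 1) for Pdia6 in M against Normal. In M against ET it lay at -0.017 to 0.11 for Dnajb9, -0.033 to 0.0081 for Edem1, -0.083 to 0.0023 for Derl1 and -0.044 to 0.071 for Edem2, the sign turning without ET replicate 2 or M replicate 2 or 3 for Dnajb9, without ET or M replicate 2 for Edem1, without ET replicate 2 for Derl1 and without ET replicate 3 or M replicate 1 for Edem2.

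The replicate numbers name libraries and do not pair them: over 9 same-numbered pairs of libraries, deviations from the group means correlated at -0.093 to 0.055, 0 of them over 0.1. With the replicate block, 28 members were called in the treated mean, 25 in ET against Normal, 28 in M against Normal and 13 in M against ET, where Syvn1 was added (adjusted p = 0.0357), and Sdf2l1 lost its call in the treated mean (adjusted p = 0.0648). The block called 508 of all 11536 tested genes higher and 414 lower in M against ET. A fit of the groups compared alone has no separate value for the treated mean, which uses all 3 groups. Only 3 libraries a group limit the precision, and differences under about 10% between M and ET were rarely called.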

Other observations

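The ERSE of Creld2 lies at chromosome 15, 88819520 to 88819538 (GRCm38.p6), and the same bases are the ERSE found in the promoter window of Alg12, a mannosyltransferase gene that runs the other way from the same stretch. Alg12 stood at 14.3, 13.9 and 15.4 CPM in Normal, 15.5, 14.3 and 15.2 in ET and 16.2, 13.5 and 16.2 in M, with overlap between all groups, and it was not called in the treated mean (log2 0.062, adjusted p = 0.516) or in M against ET (log2 0.032, adjusted p = 0.872), while Creld2 rose by 34.5% in the treated mean (log2 0.43, SE 0.04, adjusted p = 7.49e-07). Whether the 2 genes differ from each other was not tested. Outside the 33 genes, ERSE lay in the windows of 26 further genes, of which 4 passed the filter on low values. Ero1lb, an ER oxidase, was higher in the treated mean (log2 0.72, adjusted p = 5.45e-08), Pan2 and Hnrnpa3 were lower (log2 -1.26 and -2.08, adjusted p = 2.72e-09 and 1.20e-07), and Hnrnpa3 was higher in M than in ET (log2 1.43, adjusted p = 0.00117). Alg12 was the other of the 4. These genes were looked up after the values of the set were known.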
